A study of Homo sapiens with 12 samples.

Results

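The 10 genes described here belong to the endoplasmic reticulum and its unfolded protein response. HSPA5, HSP90B1, HYOU1, SDF2L1, DNAJB9, DNAJB11, DNAJC3 and PDIA4 encode chaperones and folding factors. HERPUD1 encodes a membrane protein that organises the degradation of misfolded proteins, and XBP1 a transcription factor of the response. These genes are called the members. They were given as a list of names with no threshold on measured values, but were chosen with earlier results of these data known. They are 10 of the 18417 genes that the arrays measured with a transcript cluster of 1 gene symbol. Each had 1 transcript cluster (a group of probes read out together), shared with no other gene. The study used 12 Affymetrix arrays in 4 groups of 3. Treated KA is K562/ADR, the adriamycin-resistant subline of K562, after 5 nM decitabine for 72 hours, and untreated KA is the same subline without it. Treated KS is K562 after the same decitabine, and untreated KS is K562 without it. K562 is a cell line established from a patient's chronic myeloid leukaemia, able to make some erythroid proteins. KA was maintained in 50 nM adriamycin (doxorubicin, an anthracycline) and KS was not, so that the line and the drug in its medium differ together. Whether the untreated cells received a vehicle, and whether adriamycin stayed in the medium with decitabine, is not stated. The study asked how decitabine, a nucleoside drug that lowers DNA methylation by trapping DNA methyltransferases on replicated DNA, acts on the drug-resistant line.

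Secretory and membrane proteins fold inside the endoplasmic reticulum, where HSPA5 (BiP) binds unfolded chains with the help of J-domain co-chaperones. When unfolded chains accumulate, the sensors IRE1 (ERN1), PERK (EIF2AK3) and ATF6 start the unfolded protein response: ATF6 is cleaved into a transcription factor, IRE1 splices XBP1 mRNA into the form that encodes an active one, and PERK favours translation of ATF4. The response raises transcription of the chaperones and of the machinery that removes misfolded proteins, and is well studied in secretory cells and in tumour cells, leukaemias among them.

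Values are on a log2 scale, and a level is compared only within a gene, since probes of different genes differ in brightness. The arrays had medians of 4.96 to 5.01, and the correlation within a group was 0.990 to 0.995. No member read below 5.46 on any array, against a highest lower quartile of an array of 3.39, which served as the background floor. Over 477 genes that decitabine moved by at least 1 in KS, untreated KS replicate 3 lay a median of 31.8% of the way towards treated KS, and treated KS replicate 1 was shifted the other way by 14.8% over 418 such genes, so KS results are also given without them where that changes a count. Erythroid markers had array medians of 9.04 to 9.13 in treated KA, 8.84 to 8.93 in untreated KA, 9.09 to 9.21 in treated KS and 8.81 to 9.05 in untreated KS. With decitabine 1 of the 9 measured erythroid markers was called higher in KA and 6 in KS, and of 7 myeloid markers 1 was called higher in KA and 3 in KS. Over all genes 9.66% were called higher in KA and 14.6% in KS. The part of these markers in the results below was not tested. Lymphoid, myeloid, and fibroblast and endothelial markers had array medians of 3.85 to 4.91, and epithelial markers 8.17 to 8.49. Some markers lay far above the first range. LYZ averaged 8.98 in treated KA, 7.21 in untreated KA, 11.01 in treated KS and 8.40 in untreated KS. PTPRC group means were 7.93 to 8.77 and those of PECAM1 6.62 to 6.95. CD3D averaged 6.91 in treated and 6.95 in untreated KA, against 4.55 and 4.67 in KS. At or under the floor in all groups were 1 lymphoid, 2 myeloid, and 2 fibroblast and endothelial markers. In bulk cultures a change in the share of cells of one state cannot be told apart from a change in RNA per cell.

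The promoters of 6 of the 10 members hold an element of the unfolded protein response, and these are shown. The members are grouped by that response, so finding its element in them is a description and not an independent result. Sequences are 250 bases before the RefSeq transcription start (GRCh38.p14), 5′ to 3′ on the gene's strand. Capitals mark the endoplasmic reticulum stress response element ERSE, which is CCAAT, 9 bases of any kind and CCACG, or its relative ERSE-II, which is ATTGG, 1 base of any kind and CCACG. In ERSE the factor NF-Y binds the CCAAT box and ATF6 the CCACG box. Both strands were searched, and a match on the opposite strand appears as its reverse complement.
HSPA5, chr9:125241344-125241593, minus strand, 1 ERSE: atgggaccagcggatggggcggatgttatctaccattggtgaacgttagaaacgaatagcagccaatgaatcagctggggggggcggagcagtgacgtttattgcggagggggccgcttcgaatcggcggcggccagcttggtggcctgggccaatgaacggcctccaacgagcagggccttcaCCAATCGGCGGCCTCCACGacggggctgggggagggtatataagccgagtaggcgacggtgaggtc
HSP90B1, chr12:103930160-103930409, plus strand, 2 ERSE: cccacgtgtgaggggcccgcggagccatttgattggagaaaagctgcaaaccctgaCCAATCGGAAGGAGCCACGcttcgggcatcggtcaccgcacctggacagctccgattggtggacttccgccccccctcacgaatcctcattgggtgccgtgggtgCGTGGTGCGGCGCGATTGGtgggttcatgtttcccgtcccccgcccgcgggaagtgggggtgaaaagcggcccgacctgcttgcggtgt
XBP1, chr22:28800570-28800819, minus strand, 1 ERSE: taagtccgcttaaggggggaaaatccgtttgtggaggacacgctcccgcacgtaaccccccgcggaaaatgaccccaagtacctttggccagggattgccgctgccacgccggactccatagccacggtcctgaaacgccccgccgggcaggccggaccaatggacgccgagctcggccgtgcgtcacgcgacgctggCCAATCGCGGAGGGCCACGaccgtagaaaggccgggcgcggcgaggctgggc
HYOU1, chr11:119057206-119057455, minus strand, 2 ERSE-II: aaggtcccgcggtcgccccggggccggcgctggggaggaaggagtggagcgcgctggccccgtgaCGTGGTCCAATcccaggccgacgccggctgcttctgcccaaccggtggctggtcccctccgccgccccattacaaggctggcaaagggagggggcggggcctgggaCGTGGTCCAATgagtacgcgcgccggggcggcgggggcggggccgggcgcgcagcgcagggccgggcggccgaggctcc
SDF2L1, chr22:21642052-21642301, plus strand, 1 ERSE-II: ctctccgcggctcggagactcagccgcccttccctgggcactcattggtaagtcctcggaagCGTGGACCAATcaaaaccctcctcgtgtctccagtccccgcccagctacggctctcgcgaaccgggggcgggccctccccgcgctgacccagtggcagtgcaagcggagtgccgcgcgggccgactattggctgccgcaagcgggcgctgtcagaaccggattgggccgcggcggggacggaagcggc
HERPUD1, chr16:56931892-56932141, plus strand, 1 ERSE-II: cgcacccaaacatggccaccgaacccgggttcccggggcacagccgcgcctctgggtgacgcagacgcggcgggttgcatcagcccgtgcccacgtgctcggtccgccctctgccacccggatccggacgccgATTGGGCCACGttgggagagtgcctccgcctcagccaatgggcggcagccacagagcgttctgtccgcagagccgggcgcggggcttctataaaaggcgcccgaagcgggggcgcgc

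Positions count from the transcription start, with the base before it as -1. The ERSE of HSPA5 lay at -66 to -48 and that of XBP1 at -52 to -34. HSP90B1 held one at -194 to -176 and another, on the opposite strand, at -89 to -71. HYOU1 held its ERSE-II matches at -185 to -175 and -79 to -69, and SDF2L1 its match at -188 to -178, all on the opposite strand, while that of HERPUD1 lay at -117 to -107. Among all 35116 RefSeq windows of 300 bases (250 before to 50 after a start), ERSE was in 27 windows (0.0769%) and ERSE-II in 19 (0.0541%). These letters are thus rare in promoters. That 6 of the 10 members carry one or the other describes genes grouped by this response and was not a test. The CCACG box alone, which is part of both elements, was in 38.1% of windows and in those of 9 of the 10 members, all but DNAJB11. HERPUD1 also held TTGC followed directly by ATCA, the half-sites that a C/EBP protein and ATF4 bind together, at -176 to -169, a motif found in 0.866% of windows. A match describes the sequence and does not show that a factor was bound in these cells. The 12 windows of the 10 members (PDIA4 and XBP1 have 2 starts each) held a median of 31.5 CpG dinucleotides, between 3 and 44, against a median of 14 over all windows (quartiles 4 and 28).

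Decitabine raised all 10 members in KA. The increases lay between 0.28 and 0.76 on the log2 scale, or 1.21-fold for XBP1 to 1.69-fold for PDIA4, with a median of 0.65 against -0.02 over all genes tested. A gene is called where the adjusted p (limma's moderated test, Benjamini-Hochberg over the 18417 genes) is under 0.05, and 9.66% of all genes were called higher in this comparison. In every member each treated KA array lay above each untreated KA array, as it did for 19.5% of all genes. Since the members were chosen with earlier results of these data known, their counts beside these shares are a description. It is not stated that the replicates were separate cultures, so p-values cover variation between these arrays alone, which may be technical, and 3 arrays a group limit the precision. Errors of differences below are standard errors (SE) with n = 3 arrays in each group.

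**Figure D1:**
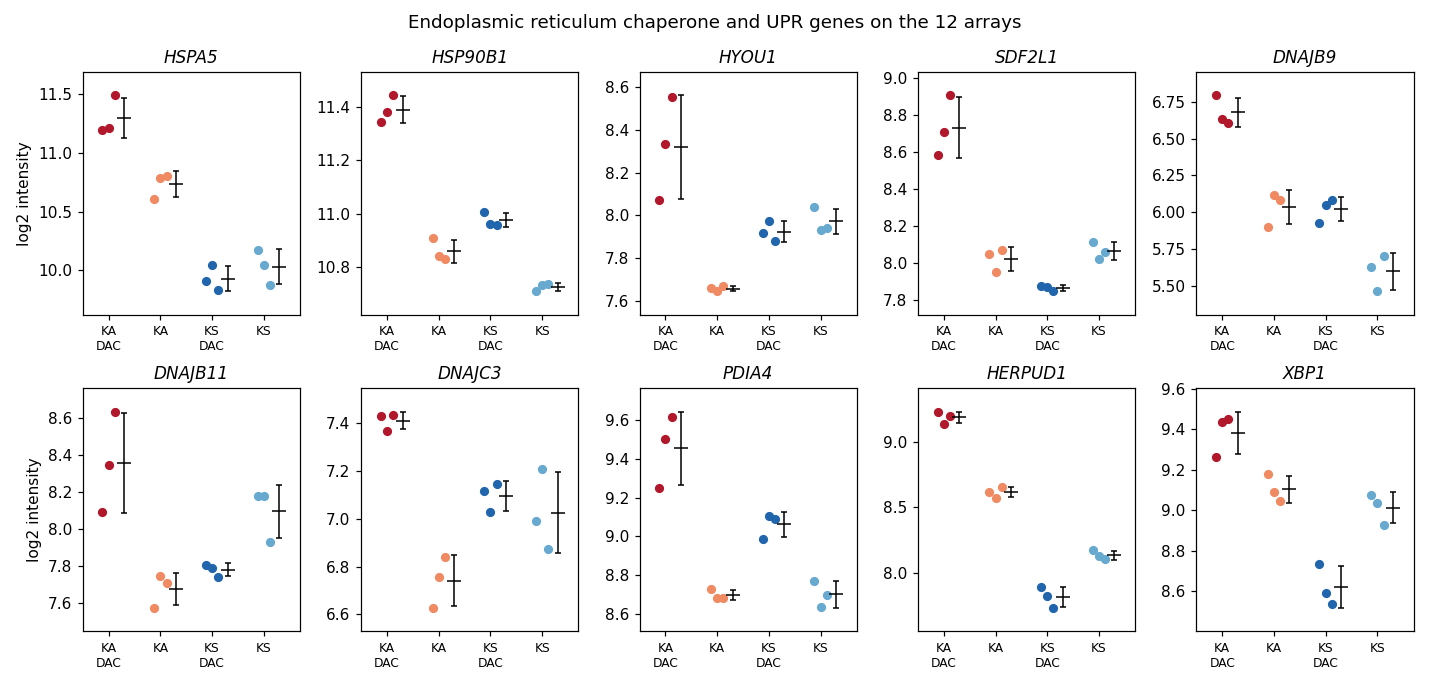
Log2 signal of the 10 members on each of the 12 arrays, 1 panel per gene and 1 point per array, with a bar at the mean of each group of 3. The 3 treated KA arrays lie above the 3 untreated KA arrays in every panel, and treated KA has the highest mean in every panel.

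HSPA5 encodes BiP, the Hsp70 of the endoplasmic reticulum. It read 11.19, 11.21 and 11.49 in treated KA, against 10.61, 10.79 and 10.81 in untreated KA. The lowest treated array stood above the highest untreated one, and the increase was 0.57 ± 0.10 (adjusted p = 0.00353). HYOU1 (GRP170), a large Hsp70 relative that exchanges the nucleotide of BiP, read 8.07, 8.33 and 8.55 in treated KA and 7.66, 7.645 and 7.67 in untreated KA. Its untreated arrays were nearly level and its treated arrays were spread out, and it rose by 0.66 ± 0.10 (adjusted p = 0.00105).

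The J-domain co-chaperones of BiP among the members rose with it. Other J-domain proteins of the compartment were positive but not called in KA. These were DNAJC10 (0.20, adjusted p = 0.150), DNAJC1 (0.19, adjusted p = 0.0915) and SEC63 (0.16, adjusted p = 0.135). DNAJB9 (ERdj4), which also holds BiP on the sensor IRE1, read 6.80, 6.63 and 6.61 in treated KA, against 5.90, 6.12 and 6.08 in untreated KA. DNAJB9 was 0.65 ± 0.09 higher (adjusted p = 0.00067), and its treated values lay about as close together as its untreated ones. DNAJB11 (ERdj3), which delivers unfolded chains to BiP, read 8.09, 8.34 and 8.63 in treated KA and 7.58, 7.74 and 7.71 in untreated KA. This was the widest spread of treated values among the members (SD 0.27), and the increase was 0.68 ± 0.12 (adjusted p = 0.0024). SDF2L1, which forms a complex with DNAJB11, read 8.58, 8.71 and 8.91 in treated KA, against 8.05, 7.95 and 8.07 in untreated KA, an increase of 0.71 ± 0.08 (adjusted p = 0.00023). DNAJC3 (p58IPK), a co-chaperone also known as an inhibitor of PERK, read 7.43, 7.37 and 7.43 in treated KA and 6.63, 6.76 and 6.84 in untreated KA. The treated arrays of DNAJC3 were tightly grouped, 0.67 ± 0.09 above the untreated ones (adjusted p = 0.00055).

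The Hsp90 and a disulphide isomerase of the compartment rose as well. Of isomerases outside the members, P4HB was called higher in KA (0.28, adjusted p = 0.00808) and PDIA6 was not called (0.13, adjusted p = 0.339). HSP90B1 (GRP94), the Hsp90 of the endoplasmic reticulum, read 11.34, 11.38 and 11.44 in treated KA, against 10.91, 10.84 and 10.83 in untreated KA, with little spread in either group. It rose by 0.53 ± 0.06 (adjusted p = 0.00023). PDIA4 (ERp72), which forms and rearranges disulphide bonds, read 9.25, 9.51 and 9.62 in treated KA and 8.73, 8.68 and 8.68 in untreated KA. Its increase of 0.76 ± 0.09 was the largest of the 10 (adjusted p = 0.00026).

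HERPUD1, a membrane protein that organises the degradation of misfolded proteins, read 9.22, 9.14 and 9.19 in treated KA, against 8.62, 8.57 and 8.65 in untreated KA. The groups were narrow and well apart, and the increase was 0.57 ± 0.06 (adjusted p = 0.00023). XBP1, the transcription factor spliced by IRE1, read 9.26, 9.44 and 9.45 in treated KA and 9.18, 9.09 and 9.04 in untreated KA. The gap between the groups was the narrowest of the 10, and the increase was 0.28 ± 0.08 (adjusted p = 0.0343). The array gives 1 value for all XBP1 mRNA and does not separate the spliced form. The XBP1 call was lost with all clusters tested (adjusted p = 0.0644), with the replicate block (0.0563) and with treated KA replicate 2 or 3 or untreated KA replicate 2 or 3 left out (0.25 to 0.27, adjusted p between 0.099 and 0.119), while the other 9 members were called under every alternative run in this comparison.

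In KS the same drug gave a mixed picture: 3 members were higher, 2 were lower and 5 did not pass the test. The members' median difference was -0.07, and 14.6% of all genes were called higher and 15.7% lower in this comparison. DNAJB9, PDIA4 and HSP90B1 were the members called higher. DNAJB9 read 5.93, 6.05 and 6.08 in treated KS, against 5.62, 5.46 and 5.70 in untreated KS, an increase of 0.42 ± 0.09 (adjusted p = 0.00263). PDIA4 read 8.99, 9.11 and 9.09 in treated KS and 8.77, 8.64 and 8.70 in untreated KS, an increase of 0.36 ± 0.09 (adjusted p = 0.00706). HSP90B1 read 11.005, 10.96 and 10.96 in treated KS, against 10.71, 10.73 and 10.74 in untreated KS, and rose by 0.25 ± 0.06 (adjusted p = 0.00639). In all 3 of these genes every treated array lay above every untreated one, as in 19.3% of all genes.

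XBP1 and HERPUD1 fell in KS. XBP1 read 8.73, 8.59 and 8.54 in treated KS, against 9.07, 9.04 and 8.93 in untreated KS, a difference of -0.39 ± 0.08 (adjusted p = 0.00224). HERPUD1 read 7.89, 7.82 and 7.74 in treated KS and 8.17, 8.13 and 8.11 in untreated KS, a difference of -0.32 ± 0.06 (adjusted p = 0.00215). Every treated array lay below every untreated one for 4 members, these and DNAJB11 and SDF2L1, as for 20.7% of all genes. DNAJB11 read 7.81, 7.79 and 7.74 in treated KS, against 8.18, 8.18 and 7.93 in untreated KS. The difference of -0.32 ± 0.12 did not pass (95% interval -0.57 to -0.06, adjusted p = 0.059). It passed without untreated KS replicate 3, its lowest untreated array (-0.40, adjusted p = 0.0283), and with median centring, with dim genes removed, with only the groups compared in the fit and with an intensity trend and robust prior (adjusted p between 0.0258 and 0.0493). SDF2L1 read 7.88, 7.87 and 7.85 in treated KS and 8.11, 8.02 and 8.06 in untreated KS, a difference of -0.20 ± 0.08 that did not pass (interval -0.38 to -0.02, adjusted p = 0.0849) other than with that trend and prior (0.0363).

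The groups overlapped in KS for the other 3 members. HSPA5 read 9.91, 10.04 and 9.84 in treated KS, against 10.17, 10.05 and 9.88 in untreated KS, a difference of -0.10 with an interval of -0.33 to 0.12 (adjusted p = 0.531). HYOU1 read 7.92, 7.97 and 7.88 in treated KS and 8.04, 7.93 and 7.94 in untreated KS, a difference of -0.05 (interval -0.26 to 0.17, adjusted p = 0.788). DNAJC3 read 7.12, 7.03 and 7.14 in treated KS, against 6.99, 7.21 and 6.87 in untreated KS, a difference of 0.07 (interval -0.12 to 0.26, adjusted p = 0.62). These intervals leave room for changes of either sign. Without untreated KS replicate 3 the counts were 3 higher and 3 lower, and without treated KS replicate 1 they were 3 and 2.

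**Figure D2:**
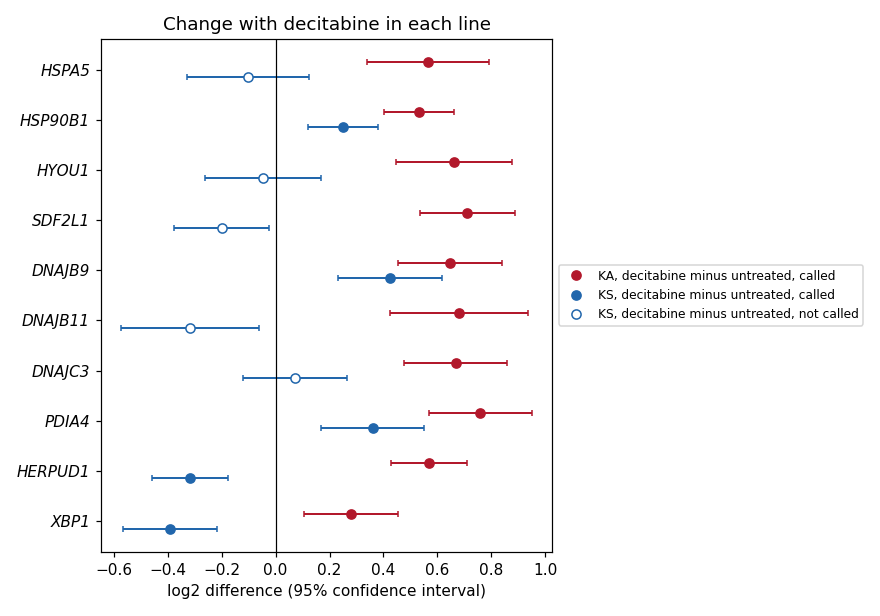
Log2 difference between treated and untreated cells for the 10 members in KA and in KS, with 95% intervals from the fit across all genes. All 10 KA values lie above 0, between 0.28 and 0.76, while the KS values run from -0.39 for XBP1 to 0.42 for DNAJB9.

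The increase in KA minus the change in KS was positive for all 10 members, and 7 of these differences passed their own test, where 4.6% of all genes were called higher. The median of this difference was 0.67 for the members and -0.00 over all genes, to 2 decimals. The split of all calls in this test depended on scaling: 68.3% were higher as deposited, against 53.9% after quantile normalization. DNAJB11 differed most (0.998 ± 0.17, adjusted p = 0.00659), then SDF2L1 (0.91 ± 0.12, adjusted p = 0.00222) and HERPUD1 (0.89 ± 0.09, adjusted p = 0.00086). These 3 were higher in treated KA than in untreated KA, and lower in mean in treated KS than in untreated KS. HYOU1 differed by 0.71 ± 0.14 (adjusted p = 0.0129), XBP1 by 0.67 ± 0.11 (adjusted p = 0.00715), HSPA5 by 0.67 ± 0.15 (adjusted p = 0.02) and DNAJC3 by 0.60 ± 0.13 (adjusted p = 0.0167). The HSPA5 call was lost when untreated KA replicate 1, treated KS replicate 3 or untreated KS replicate 1 was left out (0.60 to 0.62, adjusted p between 0.05002 and 0.0563). For the members called higher in both lines the difference did not pass as deposited: PDIA4 by 0.40 (interval 0.13 to 0.67, adjusted p = 0.0773), HSP90B1 by 0.28 (0.10 to 0.47, adjusted p = 0.0691) and DNAJB9 by 0.22 (-0.05 to 0.50, adjusted p = 0.319). The PDIA4 difference passed without treated KA replicate 1 (0.50, adjusted p = 0.025) and with the intensity trend and robust prior (0.017), and that of HSP90B1 with dim genes removed (0.0486) and with the trend and prior (0.00466).

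The untreated lines shared no common direction over these genes. Of the 10 members, 3 were called higher in untreated KA than in untreated KS and 3 lower, where 11.6% of all genes were called higher and 14.1% lower, and the members' median difference was 0.04. After quantile normalization 54.4% of all calls in this comparison were higher, against 45% as deposited. HSPA5 was 0.70 ± 0.10 higher in untreated KA (adjusted p = 0.00024), HERPUD1 0.48 ± 0.06 (adjusted p = 0.00012) and DNAJB9 0.44 ± 0.09 (adjusted p = 0.00246), all under every alternative run. DNAJB11 was 0.42 ± 0.12 lower in untreated KA (log2 difference -0.42, adjusted p = 0.0177), HYOU1 had a difference of -0.31 ± 0.10 (adjusted p = 0.033) and DNAJC3 of -0.28 ± 0.09 (adjusted p = 0.0317). These lower calls did not hold with some single arrays left out, while the differences stayed negative. The HYOU1 call was lost without any one of the 6 arrays (-0.33 to -0.28, adjusted p between 0.0506 and 0.111), that of DNAJB11 without untreated KA replicate 1 or untreated KS replicate 1 or 2 (-0.38 to -0.37, adjusted p between 0.065 and 0.0704), and that of DNAJC3 without replicate 1 or 2 of either line (-0.30 to -0.19, adjusted p between 0.0598 and 0.132). The HYOU1 and DNAJC3 calls were also lost after quantile normalization, with all clusters tested and with the replicate block, and that of DNAJC3 with only the groups compared in the fit (adjusted p between 0.0512 and 0.0954). No lower call was left without untreated KA replicate 1, untreated KS replicate 1 or untreated KS replicate 2. HSP90B1 (0.13, interval 0.00337 to 0.26, adjusted p = 0.131), XBP1 (0.09, -0.08 to 0.26), PDIA4 (-0.0037, -0.20 to 0.19) and SDF2L1 (-0.04, -0.22 to 0.13) did not pass, although HSP90B1 did after quantile normalization (0.0494) and with the trend and prior (0.0197). Every untreated KA array lay above every untreated KS array for 4 members and below for 3, as for 18.4% and 20% of all genes.

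With both lines treated, all 10 members were higher in KA than in KS, and 15.1% of all genes were called higher. The median difference was 0.62, against -0.0015 over all genes, and every treated KA array lay above every treated KS array in all 10, as in 22.1% of all genes. HSPA5 and HERPUD1 differed most, by 1.37 ± 0.10 (2.59-fold, adjusted p = 5.88e-07) and 1.37 ± 0.06 (2.58-fold, adjusted p = 7.58e-09). SDF2L1 was 0.87 ± 0.08 higher (adjusted p = 4.16e-06) and XBP1 0.76 ± 0.08 (adjusted p = 1.24e-05). DNAJB9 (0.66), DNAJB11 (0.58), HSP90B1 (0.42), HYOU1 (0.40) and PDIA4 (0.39) followed, each with an adjusted p of 0.00898 or less. DNAJC3 had the smallest difference, 0.31 ± 0.09 (adjusted p = 0.0174), and its call was lost without treated KA replicate 1 or 3 or treated KS replicate 2 (adjusted p between 0.0532 and 0.0657). These comparisons share arrays: treated KA enters this one and the decitabine comparison in KA, so their values are not independent of each other.

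**Figure D3:**
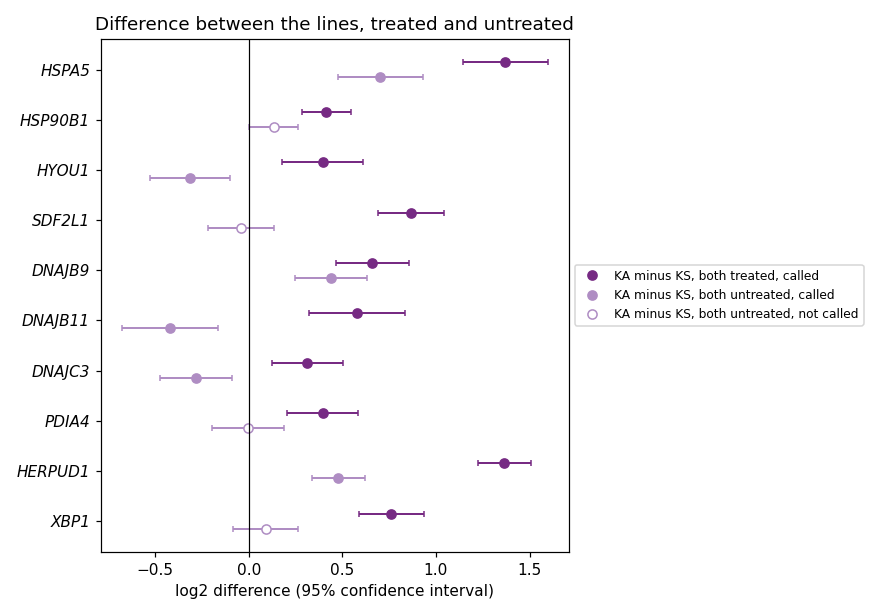
Log2 difference between KA and KS for the 10 members, with both lines treated and with both untreated, and 95% intervals from the fit across all genes. Between treated lines all values are above 0, from 0.31 to 1.37, while between untreated lines they run from -0.42 for DNAJB11 to 0.70 for HSPA5.

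Treated KA had the highest mean in every member, and the order of the other 3 groups differed between genes. In HSPA5, HERPUD1 and XBP1 the order was treated KA, untreated KA, untreated KS, treated KS. The arrays of neighbouring groups did not overlap in HERPUD1, whereas treated and untreated KS overlapped in HSPA5, and untreated KA and untreated KS in XBP1. HSP90B1, whose 4 groups were all apart, ran treated KA, treated KS, untreated KA, untreated KS. PDIA4 and DNAJC3 shared the order treated KA, treated KS, untreated KS, untreated KA, and the 2 untreated lines overlapped in PDIA4, the 2 KS groups in DNAJC3. HYOU1 and DNAJB11 ran treated KA, untreated KS, treated KS, untreated KA. In DNAJB11 untreated KS overlapped with treated KA, and treated KS with untreated KA, while in HYOU1 only the KS groups overlapped. SDF2L1 ran treated KA, untreated KS, untreated KA, treated KS, with the untreated lines overlapping. DNAJB9 ran treated KA, untreated KA, treated KS, untreated KS, with untreated KA and treated KS overlapping. Group means of a member spanned between 0.66 (HYOU1) and 1.37 (HSPA5 and HERPUD1).

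The spread between replicates of these genes was widest in treated KA, as a description. The median SD of the members was 0.134 in treated KA, 0.0659 in untreated KA, 0.0629 in treated KS and 0.0723 in untreated KS, while over all genes it was 0.0919, 0.0945, 0.102 and 0.114. Treated KA replicate 1 was the lowest of its group for 7 of the 10 members and replicate 3 the highest for 8. Each member minus its own mean over the 12 arrays had a median of 0.36, 0.47 and 0.61 on the 3 treated KA arrays, and lay between -0.22 and -0.11 on the other 9 arrays. The lowest treated KA array thus stood clear of the other groups by this median.

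The factors that carry the signal moved less uniformly. DDIT3 (CHOP), the transcription factor induced through PERK and ATF4, read 9.33, 9.35 and 9.52 in treated KA, against 8.13, 8.51 and 8.52 in untreated KA, an increase of 1.01 ± 0.12 (adjusted p = 0.00026). DDIT3 read 7.61, 7.68 and 7.36 in treated KS and 7.22, 6.997 and 7.17 in untreated KS, an increase of 0.42 ± 0.12 (adjusted p = 0.0153). That KS call was lost without treated KS replicate 1 or 2 or untreated KS replicate 2 (adjusted p between 0.0516 and 0.0671), and the changes of the lines were not shown to differ (0.59, adjusted p = 0.0531) other than with median centring, with dim genes removed or with the trend and prior (adjusted p between 0.0166 and 0.0488). DDIT3 was 1.85 ± 0.12 higher in treated KA than in treated KS (adjusted p = 1.19e-07) and 1.26 ± 0.12 higher in untreated KA than in untreated KS (adjusted p = 4.92e-06). EIF2AK3 (PERK) rose in both lines, by 0.37 ± 0.07 in KA (adjusted p = 0.00396) and 0.27 ± 0.07 in KS (adjusted p = 0.0101), and the difference of these changes was 0.10 (adjusted p = 0.581). EIF2AK3 was not called between the lines, with KA minus KS at 0.14 when treated (adjusted p = 0.166) and 0.04 when untreated (adjusted p = 0.755). ERN1 (IRE1) rose in KS by 0.28 ± 0.06 (adjusted p = 0.00398) and had a difference of 0.11 in KA (adjusted p = 0.271), and the changes were not shown to differ (-0.17, adjusted p = 0.282). ERN1 was also 0.67 ± 0.06 higher in untreated KA than in untreated KS (adjusted p = 5.85e-06) and 0.50 ± 0.06 higher in treated KA than in treated KS (adjusted p = 6.71e-05). ATF6 was not called in any comparison as deposited, with differences between -0.15 (treated minus untreated KS) and 0.21 (treated KA minus treated KS). Its untreated lines differed by 0.05 (adjusted p = 0.709), and its change in KA minus that in KS was 0.16 (adjusted p = 0.42). It was called between treated lines after quantile normalization (0.0316) and with the trend and prior (0.0159), and lower in KS without untreated KS replicate 3 (-0.22, adjusted p = 0.0356).

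ATF4 read 9.41, 9.44 and 9.52 in treated KA, against 9.16, 9.32 and 9.24 in untreated KA, a difference of 0.22 ± 0.10 that did not pass (adjusted p = 0.174). In treated KS it read 8.87, 8.67 and 8.44, against 9.35, 9.46 and 9.25 in untreated KS, and it fell by 0.69 (SE 0.10, adjusted p = 0.00019). The change in KA minus that in KS was 0.91 ± 0.14 (adjusted p = 0.00435). ATF4 was 0.80 ± 0.10 higher in treated KA than in treated KS (adjusted p = 5.84e-05), while untreated KA minus untreated KS was -0.11 (adjusted p = 0.461), or -0.42 as the mean of its clusters (adjusted p = 0.0158). A second, dimmer ATF4 transcript cluster gave -0.27 in KA, of opposite sign and not called either, and -1.44 in KS. Between the lines, as KA minus KS, that cluster gave 0.45 when treated, which was not called. When untreated it gave -0.72, which was called lower, unlike the brighter cluster.

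Among 18 other folding factors of the compartment, 7 were called higher in KA with decitabine and 1 lower (median 0.20). In KS 5 were higher and 2 lower (median 0.12). The shares over all genes were 9.66% higher and 4.96% lower in KA, and 14.6% higher and 15.7% lower in KS. ERO1B, an oxidase that recharges disulphide isomerases, rose by 1.19 ± 0.11 in KA, from a mean of 3.64 in untreated KA, close to the floor of 3.39. MANF, a secreted stress protein, rose by 0.62 ± 0.10 and CALR (calreticulin), a lectin chaperone of glycoproteins, by 0.50 ± 0.07 there. FKBP2 was the gene called lower in KA (-0.28 ± 0.07), a call lost without treated KA replicate 1 or 3 or untreated KA replicate 2 or 3. In KS, ERO1B averaged 3.91 in treated cells and 3.34 in untreated cells, the last under the floor, and was called higher (adjusted p = 0.00163). DNAJC1 rose there by 0.28 ± 0.07 and UGGT1, the glucosyltransferase that senses glycoprotein folding, by 0.26 ± 0.06. ERO1A (-0.51 ± 0.10) and FKBP2 (-0.28 ± 0.07) fell in KS.

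Of 18 genes of endoplasmic reticulum-associated degradation, 6 were called in KA, all higher (median 0.14), where 9.66% of all genes were called higher. In KS 4 were higher and 4 lower (median -0.03), where 14.6% of all genes were higher and 15.7% lower. Without treated KA replicate 3 only 2 of the 6 were called, and without treated KS replicate 3 or untreated KS replicate 1 only 2 were called lower in KS. SEL1L, the adaptor of the HRD1 ubiquitin ligase, rose by 0.82 ± 0.09 in KA and SYVN1 (HRD1) itself by 0.45 ± 0.07. SELENOS, a further part of the complex, rose by 0.43 ± 0.12 in KA and fell by 0.45 in KS (SE 0.12), although the KA call was lost without treated KA replicate 2 or 3 or untreated KA replicate 1 and the KS call without untreated KS replicate 1. EDEM2 (0.49 ± 0.07), DERL3 (0.40 ± 0.10) and ERLEC1 (0.39 ± 0.08) rose in KS. NPLOC4 (-0.26 ± 0.06) and DERL2 (-0.36 ± 0.11) fell there, a call lost without treated KS replicate 3 or untreated KS replicate 3.

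Of 8 sensors and related factors, 3 were higher in each line with decitabine (medians 0.12 in KA and -0.05 in KS). Over all genes 9.66% were called higher in KA, and 14.6% were higher and 15.7% lower in KS. CREB3L2, a membrane-bound transcription factor like ATF6, rose by 0.40 ± 0.07 in KA and 0.33 ± 0.07 in KS, and CREB3, of the same family, rose by 0.38 ± 0.08 in KA. Without untreated KS replicate 3, 3 of the 8 were called lower in KS. Of the 10 genes of the PERK, ATF4 and CHOP branch, 2 were called in KA, both higher (median 0.15), while in KS 1 was higher and 6 were lower (median -0.38). DDIT3 was the branch gene higher in KS, and in KA it was joined by ASNS (asparagine synthetase, 0.34 ± 0.09), whose call was lost with any single KA array left out other than untreated replicate 2 (adjusted p between 0.0585 and 0.105). CHAC1 (-0.96 ± 0.10), which degrades glutathione, TRIB3 (-0.87 ± 0.10), a pseudokinase, and ATF3 (-0.71 ± 0.14), a transcription factor, fell most in KS. In untreated KA 7 of the 10 branch genes were higher than in untreated KS (median 0.46), and in treated KA 9 were higher than in treated KS (median 1.09), with ASNS at 1.56 ± 0.09 and 2.20 ± 0.09. Over all genes 11.6% were called higher between untreated lines and 15.1% between treated lines.

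**Figure D4:**
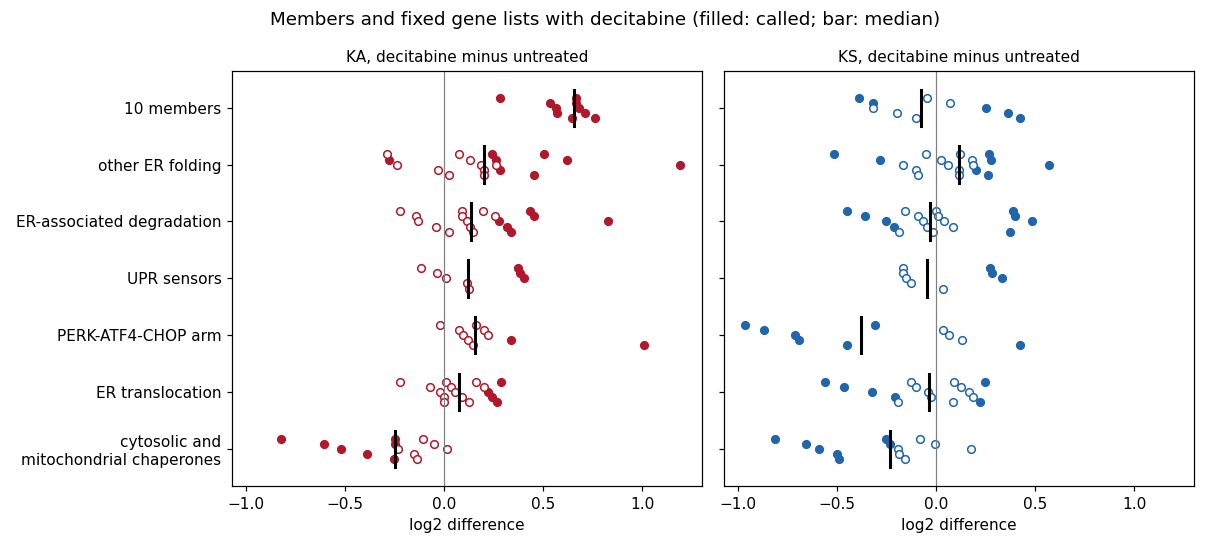
Log2 difference between treated and untreated cells for each measured gene of the groups, in KA and in KS, with a bar at the median of each group. The 10 members have medians of 0.65 in KA and -0.07 in KS, and the PERK, ATF4 and CHOP branch has medians of 0.15 and -0.38.

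ERSE or ERSE-II was also found in windows of 30 measured genes that are no members. With decitabine 8 of these were called in KA, all higher (median 0.14), and in KS 5 were higher and 2 lower (median 0.01). Over all genes 9.66% were called higher in KA, and 14.6% were higher and 15.7% lower in KS. The 8 genes, named after their values were seen, were ERO1B, TRIM5 (0.93), FICD (0.65), CALR, CRELD2 (0.45), ALG12 (0.45), TMEM120A (0.29) and GYS1 (0.28). FICD modifies BiP with AMP, CRELD2 is a secreted stress protein and ALG12 builds the sugar chain of glycoproteins. TMEM120A and GYS1 were lost with single arrays left out, which gave 6 or 7 calls. The other genes with the element were not called in KA, and 22 of the 30 had a positive difference, as had 8450 of all 18417 genes. CANX (calnexin) differed by -0.03 and PDIA6 by 0.13. Both, with ERO1B, CALR and CRELD2, are also among the other folding factors above, so these lists overlap. The lowest differences were those of CLEC4F (-0.26), SYNPO (-0.22) and GLRA2 (-0.21).

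The genes most like the members in pattern were sought over the 12 arrays, as the root mean square difference from the members' median profile after each gene's own mean was removed. Of genes that are no members, UGDH (0.0878), ZFAND2A (0.088), CRELD2 (0.09), CACNB1 (0.0993), PTPRH (0.101), IDH1 (0.103), SAGE1 (0.105), CDC20 (0.112), BET1L (0.113) and SRGAP2 (0.116) lay nearest. HSP90B1 (0.099) and SDF2L1 (0.103) were the members nearest to their common profile, and HERPUD1 (0.33) and HSPA5 (0.367) were farthest. In both of the farthest, every untreated KA array lay above both KS groups. The mean of untreated KA was above both KS groups in DNAJB9 and XBP1 too, but with overlapping arrays. CRELD2 averaged 6.16 in treated KA, 5.71 in untreated KA, 5.62 in treated KS and 5.598 in untreated KS. This describes the 12 arrays and rests on no test.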

How the data were processed

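Total RNA of 12 samples, grouped by their labels, was hybridised as biotin-labelled cRNA, per the labels' protocols. The deposited values are the authors' log2 signals, used without rescaling; their background correction, summary and normalization are not given in the sources used here. The platform annotation gives 1 gene symbol to 19460 of 33297 transcript clusters, several to 1754 and none to 12083, and 19429 matched a RefSeq gene by Entrez identifier. Each of the resulting 18417 genes was represented by its brightest cluster (769 genes had several), and other clusters were left out.

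With limma 3.58.1 in R 4.3.3, 1 model of 4 group means was fitted over the 12 arrays (residual degrees of freedom 8, prior 4.71), and p-values were adjusted over all genes by Benjamini-Hochberg. The fit was tested on simulated data. The members and gene lists were chosen with earlier results of these data known. All members and the 5 transducers ATF4, DDIT3, ERN1, EIF2AK3 and ATF6 are given in each comparison, as are, from each list, up to 3 of the largest rises and 3 of the largest falls among called genes with non-overlapping groups, of which the text gives those under decitabine and in the difference of changes, and few between lines. In the difference of changes the text gives every called gene of the lists. PDIA3, TXNDC5, ATF6B, SEC61G, HSPA1A and HSPA1B had no cluster of their own. Alternatives were median centring, quantile normalization, removal of dim genes, the mean of all clusters of a gene, all clusters tested, an intensity trend with a robust prior, a replicate block, a fit of only the groups compared, and each array left out in turn. Promoter windows are RefSeq's for GRCh38.p14, searched in Python 3.11.15 with pandas 2.3.3, and figures were drawn with matplotlib 3.10.9.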

Additional observations from a re-analysis of the deposited data

Results flagged for a closer look

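The decitabine change in KA differed from that in KS, by the test of the difference itself (limma, Benjamini-Hochberg over all genes), for 7 members and 15 genes of the other lists. Values are the change in KA minus the change in KS on the log2 scale. Among members they were 0.998 for DNAJB11, 0.911 for SDF2L1, 0.887 for HERPUD1, 0.709 for HYOU1, 0.668 for HSPA5, 0.671 for XBP1 and 0.596 for DNAJC3. For XBP1 and HERPUD1 the change was called higher in KA and lower in KS. Among folding factors the difference was 0.619 for ERO1B, whose untreated level lay under the floor in KS and close to it in KA, and 0.381 for CALR. SEL1L differed by 0.891, SELENOS by 0.882 and SYVN1 by 0.641 among degradation genes, and SEC61A1, the channel through which chains enter the compartment, by 0.389. CREB3 differed by 0.507. In the PERK, ATF4 and CHOP branch 6 of the 10 genes were called higher (median 0.62), where 4.6% of all genes were called higher. TRIB3 differed by 1.03, CHAC1 by 0.94, ATF4 by 0.911, ATF3 by 0.858 and SESN2 by 0.523, and these 5 were called lower in KS and not called in KA. ASNS differed by 0.647 and was called higher in KA and lower in KS (-0.31, adjusted p = 0.021). Outside the compartment HSPA9, the mitochondrial Hsp70, differed by 0.537 and HSPB1, a small heat shock protein, by -0.426. The calls of HSPA5, ERO1B, CALR, SEC61A1, HSPB1, ATF3 and SESN2 were lost with some single arrays left out.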

How the results depend on the processing

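Of 750 values of members under the alternatives, 699 kept their direction and their side of the threshold, as did 1771 of 1915 of the other named genes. Each member has 1 cluster, so only median centring, quantile normalization and the left-out arrays could change its difference. The other alternatives could change only its adjusted p, and could not turn a member's direction. Members called higher numbered 9 to 10 with decitabine in KA, 3 in KS, 3 to 4 between untreated lines, 9 to 10 between treated lines and 6 to 9 in the difference of changes (6 to 8 with an array left out). Members called lower in KS numbered 4 with an intensity trend and robust prior, against 2, and 2 to 3 with an array left out. DNAJB11 was the third with median centring, with dim genes removed and with only the groups compared. Between untreated lines they numbered 1 after quantile normalization, 1 with all clusters tested and 1 with the replicate block, against 3, and 0 to 2 with an array left out. The sign turned for values that were not called. In KA, ATF4 was -0.027 as the mean of its clusters, against 0.22, and ATF6 ran from -0.019 to 0.027 with an array left out. In KS, HYOU1 was 0.016 after quantile normalization, and DNAJC3 ran from -0.0036 (without untreated KS replicate 3) to 0.163 with an array left out. Between untreated lines, SDF2L1 was 0.0031 and PDIA4 0.039 after quantile normalization, and with an array left out PDIA4 ran from -0.037 to 0.032, EIF2AK3 from -0.0083 to 0.087 and ATF6 from -0.024 to 0.086. The cause of these changes was not tested. The replicate block (9 higher in KA, 3 higher and 2 lower in KS, 3 higher and 1 lower between untreated lines, 10 higher between treated lines, 7 higher in the difference) has no support as a pairing: over 18 pairs of arrays of the same number in different groups, deviations from group means correlated at -0.26 to 0.19, with 2 over 0.1. The ATF4 decrease in KS was -1.06 as the mean of its clusters.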

Other observations

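Chaperones outside the endoplasmic reticulum did not share the increase in KA. Of 13 measured cytosolic and mitochondrial chaperones, 7 were called in KA with decitabine, all lower (median -0.25), and 7 in KS, all lower (median -0.23). Over all genes 4.96% were called lower in KA and 15.7% in KS. With an array left out, 4 to 6 were lower in KA, the 4 without treated KA replicate 2 or untreated KA replicate 2 or 3, and 5 to 8 in KS. HSPE1 and HSPD1, the chaperonin pair of the mitochondrial matrix, fell in both lines. HSPE1 read 6.59, 6.66 and 6.63 in treated KA, against 7.31, 7.53 and 7.50 in untreated KA (-0.82 ± 0.08, SE, limma adjusted p = 5.83e-05), and its difference in KS was -0.81 ± 0.08 (adjusted p = 1.22e-05). HSPD1 had a difference of -0.52 ± 0.08 in KA (adjusted p = 0.00105) and -0.49 ± 0.08 in KS (adjusted p = 0.00037). HSPH1, a cytosolic relative of HYOU1 that exchanges the nucleotide of Hsp70, read 8.68, 8.50 and 8.51 in treated KA, against 9.21, 9.10 and 9.20 in untreated KA (-0.61 ± 0.09, adjusted p = 0.00125), and its difference in KS was -0.66 ± 0.09 (adjusted p = 0.00018). HSPA9, the mitochondrial Hsp70, fell in KS (-0.59 ± 0.07, adjusted p = 3.4e-05) and had a difference of -0.05 in KA (adjusted p = 0.649). Every treated array lay below every untreated one of its line for HSPE1, HSPD1 and HSPH1. In KA this was a condition for naming these genes and is not a separate result.

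Of 16 measured genes of protein entry into the endoplasmic reticulum, 4 were called in KA with decitabine, all higher (median 0.07), and 1 or 2 with any KA array left out. In KS 2 were higher and 4 lower (median -0.03), with 1 higher without untreated KS replicate 1 or 2, and 2 lower without treated KS replicate 3 or untreated KS replicate 1. The shares over all genes were 9.66% higher in KA, and 14.6% higher and 15.7% lower in KS. SEC61A1 rose in KA by 0.29 ± 0.06 (adjusted p = 0.00998). SSR2, a subunit of the translocon-associated complex, rose there by 0.27 ± 0.07 (adjusted p = 0.0158), a call lost without treated KA replicate 2 or 3 or untreated KA replicate 1. TRAM1, a membrane protein beside the channel, rose by 0.24 ± 0.07 (adjusted p = 0.0294), a call lost without any one of the 6 KA arrays and with the replicate block. In KS SSR1, of the same complex as SSR2, rose by 0.25 ± 0.07 (adjusted p = 0.0111), and SSR2 by 0.22 ± 0.07 (adjusted p = 0.0202), a call lost without treated KS replicate 2 or untreated KS replicate 1 or 2. SEC11C, a subunit of the signal peptidase, had a difference of -0.56 ± 0.16 there (adjusted p = 0.0145), a call lost without treated KS replicate 3 or untreated KS replicate 1. In KS SEC61B, a further subunit of that channel, had a difference of -0.33 ± 0.06 (adjusted p = 0.00163) and SRPRB, a subunit of the signal recognition particle receptor, of -0.46 ± 0.12 (adjusted p = 0.00779).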
